A study of Homo sapiens with 2 samples.

Results

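Of 26995 autosomal 100 kb bins that could be scored, 2304 (8.53%) were read more deeply in OCI-AML3 than in AML5 by a ratio above 1.3, and these high-ratio bins are described here. Each bin held at least 50 CpGs with at most 20 other CpGs within 500 bp, which keeps out CpG islands. The calls at these CpGs, that is, the bisulfite reads that report a methylated or an unmethylated cytosine, were summed in each line without CpGs over 100 calls in either line. The ratio of OCI-AML3 to AML5 was divided by its median over all bins, which was 0.846. With the ratio divided by that of the total calls instead, 821 of these bins (35.6%) were above 1.3. The bins were chosen by the ratio itself, and the depth values below describe them and test nothing. A high ratio can come with a high depth in OCI-AML3 or with a low depth in AML5, and both are told apart below.

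OCI-AML3 and AML5 are human acute myeloid leukemia cell lines, and the submitters label AML5 as OCI-AML5. OCI-AML3 carries a mutation of DNMT3A, a de novo DNA methyltransferase, whereas AML5 is wild type for this gene. Both were cultured in the same medium without any treatment, and whole-genome bisulfite sequencing was done on 1 library of genomic DNA per line. The files hold 878951432 calls at autosomal CpGs for OCI-AML3 (median, 28.0 per CpG) and 868999240 for AML5 (median, 31.0 per CpG). With 1 library per line there is no replicate error, so no difference between the lines was tested, and DNMT3A status, line and library cannot be told apart. All intervals given are 95% intervals that cover counting error only, and calls from the same read are not independent.

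The depth of a shotgun library over a stretch of DNA rises with the number of copies of that stretch in the cells. It also varies with base composition, through bisulfite conversion, amplification and mapping, and with how many near-identical copies the genome holds. Gains and losses of chromosome arms are common in leukemia cell lines. CDKN2A and CDKN2B, which encode inhibitors of the kinases that drive entry into S phase, and ETV6, which encodes a transcriptional repressor needed in blood stem cells, are genes that leukemias often lose.

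The sequences below belong to places that the results turn on. All come from the plus strand of GRCh37, the build of the files, and CpGs are in capitals. The first spans the right edge, in intron 2 of ETV6, of a stretch over which AML5 had almost no calls. The next pair spans the most upstream starts of CDKN2A and CDKN2B, both on the minus strand, and 213 bases of the latter lie in exon 1. The last lies within 1000 bp of the start of PEG10 on 7q, which was more methylated in OCI-AML3. This stretch lies in SGCE, the gene that starts opposite it, with 144 bases in exon 1 of its canonical transcript.
ETV6 right edge, chr12:11942552-11942731: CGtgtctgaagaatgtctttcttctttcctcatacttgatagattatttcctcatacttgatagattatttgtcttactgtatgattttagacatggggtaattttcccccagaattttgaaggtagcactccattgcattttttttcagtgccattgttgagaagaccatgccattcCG
CDKN2A start, chr9:21995077-21995326: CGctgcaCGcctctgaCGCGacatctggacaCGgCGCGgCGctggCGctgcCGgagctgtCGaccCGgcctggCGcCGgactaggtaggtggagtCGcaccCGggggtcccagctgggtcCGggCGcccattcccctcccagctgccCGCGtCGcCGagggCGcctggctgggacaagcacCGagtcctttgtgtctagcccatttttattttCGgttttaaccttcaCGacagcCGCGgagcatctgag
CDKN2B start, chr9:22009092-22009341: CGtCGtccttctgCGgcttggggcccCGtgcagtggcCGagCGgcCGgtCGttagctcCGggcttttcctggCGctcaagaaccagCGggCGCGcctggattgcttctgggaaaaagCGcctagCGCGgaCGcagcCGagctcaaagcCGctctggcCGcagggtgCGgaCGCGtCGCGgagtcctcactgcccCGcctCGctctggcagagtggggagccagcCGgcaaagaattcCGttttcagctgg
PEG10 start, chr7:94285213-94285462: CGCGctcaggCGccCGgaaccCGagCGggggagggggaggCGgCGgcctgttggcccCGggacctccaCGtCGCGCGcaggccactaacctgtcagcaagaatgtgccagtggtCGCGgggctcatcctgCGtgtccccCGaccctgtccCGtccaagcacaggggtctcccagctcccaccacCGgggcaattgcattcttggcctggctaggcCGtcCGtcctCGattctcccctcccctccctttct

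The high-ratio bins were not spread evenly. They fell into 372 runs when bins apart by at most 3 other bins were joined, and 26 runs of 10 or more bins held 1496 of them (64.9%). At the other end, 169 bins stood alone. Chromosome 7 held 593 (38.0% of its scored bins), chromosome 5 held 490 (27.5%) and chromosome 17 held 288 (36.8%), whereas chromosomes 13 and 18 held 7 each. The 3 regions with the longest runs, named here after the runs were seen, took up 1229 of the 2304 bins (53.3%): the short arm of chromosome 5 (5p), the distal long arm of chromosome 7 (7q) and the distal long arm of chromosome 17 (17q). The other 1075 high-ratio bins lay elsewhere.

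The short arm of chromosome 5 was above the threshold almost from end to end. The run chr5:1-46200000 held 461 high-ratio bins among 462 scored bins, with ratios from 1.35 to 2.59 and a median of 1.73. OCI-AML3 had a median of 37.7 calls per CpG in these bins and AML5 had 26. The depth of OCI-AML3 was 1.51 times its own median over all bins, whereas that of AML5 was 0.90 times its own. On the long arm, the median ratio was 0.97, and 29 of 1315 bins (2.21%) were above the threshold. The step therefore fell at the centromere, and the inner end of the arm was less sharp, since its last scored bins had ratios of 1.29, 1.2 and 1.16.

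The long arm of chromosome 7 was high from 90.5 Mb to its end. In chr7:90400001-90500000 the ratio was 1.21, in the bin before it 0.98 and in the bin after it 1.44. The 3 longest runs here were chr7:90500001-109300000 with 164 high-ratio bins, chr7:115400001-122600000 with 54 and chr7:125500001-159138663 with 294. Their median ratios were 1.47, 1.4 and 1.55. From 90.5 Mb on, 549 of 687 scored bins were above the threshold, and the 138 that were not had a median ratio of 1.23 and a median GC content of 36.5%, against 40.3% in the high-ratio bins. Before 90.5 Mb, the median ratio was 0.98, and 44 of 875 bins (5.03%) were above 1.3.

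On chromosome 17, the high-ratio stretch had an edge on each side. The ratio was 1.19 in chr17:56500001-56600000, 1.36 in the next bin and 1.58 in the one after it. The runs chr17:56600001-69500000 and chr17:69900001-78500000 held 116 and 86 high-ratio bins, with median ratios of 1.51 and 1.72. In the last bin of the second run the ratio was 1.48, and in the next bin it was 1.21. The 27 scored bins from there to the end of the chromosome had a median ratio of 1.34, at a median GC content of 55.1%, and 17 of them passed the threshold.

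Base composition moved with the ratio. The bins were split by GC content into 10 classes of equal size. Over these, the median depth relative to each line's own median of OCI-AML3 rose from 0.65 to 1.48, and that of AML5 rose less, from 0.75 to 1.18. The median ratio rose with it, from 0.88 in the lowest class to 1.26 in the highest. Outside the 3 regions, 34.1% of the bins in the highest class were above 1.3, against 4.10% in the class below it and 0.12% in the lowest. The high-ratio bins elsewhere had a median GC content of 52.2%, against 39.9% over all bins, and 861 of the 1075 lay in the highest class.

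**Figure D1:**
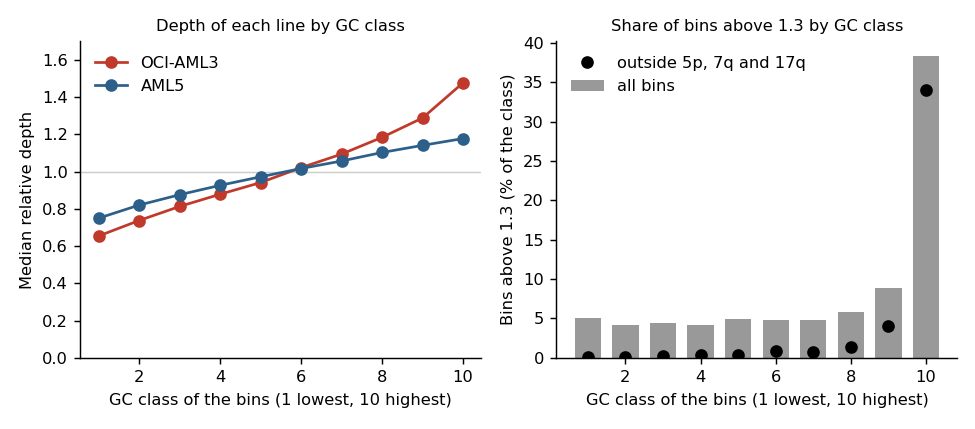
Left, median depth of the 100 kb bins relative to each line's own median (y axis) in each of the 10 classes of GC content (x axis). Right, percent of the bins of each class with a ratio above 1.3, for all bins (bars) and for those outside 5p, 7q and 17q (points). Depth rose more steeply with GC content in OCI-AML3, and outside the 3 regions the share above 1.3 reached 34.1% in the highest class.

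The ratio was therefore also divided by the median of its own GC class, an alternative added after the data were seen. All 461 bins of 5p, 520 of the 549 bins of 7q and 178 of the 219 bins of 17q remained above 1.3, with medians of 1.79, 1.47 and 1.43. Of the 1075 bins elsewhere, 113 remained above 1.3, and their median fell to 1.09. In all, 1386 bins passed on this scale, and 1272 of them were among the original 2304. Within their GC class, the high-ratio bins of the 3 regions differed from the rest of the genome in OCI-AML3. Its median relative depth there was 1.7 on 5p, 1.4 on 7q and 1.36 on 17q. AML5 had medians of 0.97, 0.97 and 0.98 in these bins. Over all scored bins of the regions, high-ratio or not, OCI-AML3 had 1.69, 1.38 and 1.34, and AML5 had 0.97, 0.97 and 0.98. On this scale the end of chromosome 17 beyond 78.5 Mb had a median ratio of 1.06, and none of its 27 bins was above 1.3.

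**Figure D2:**
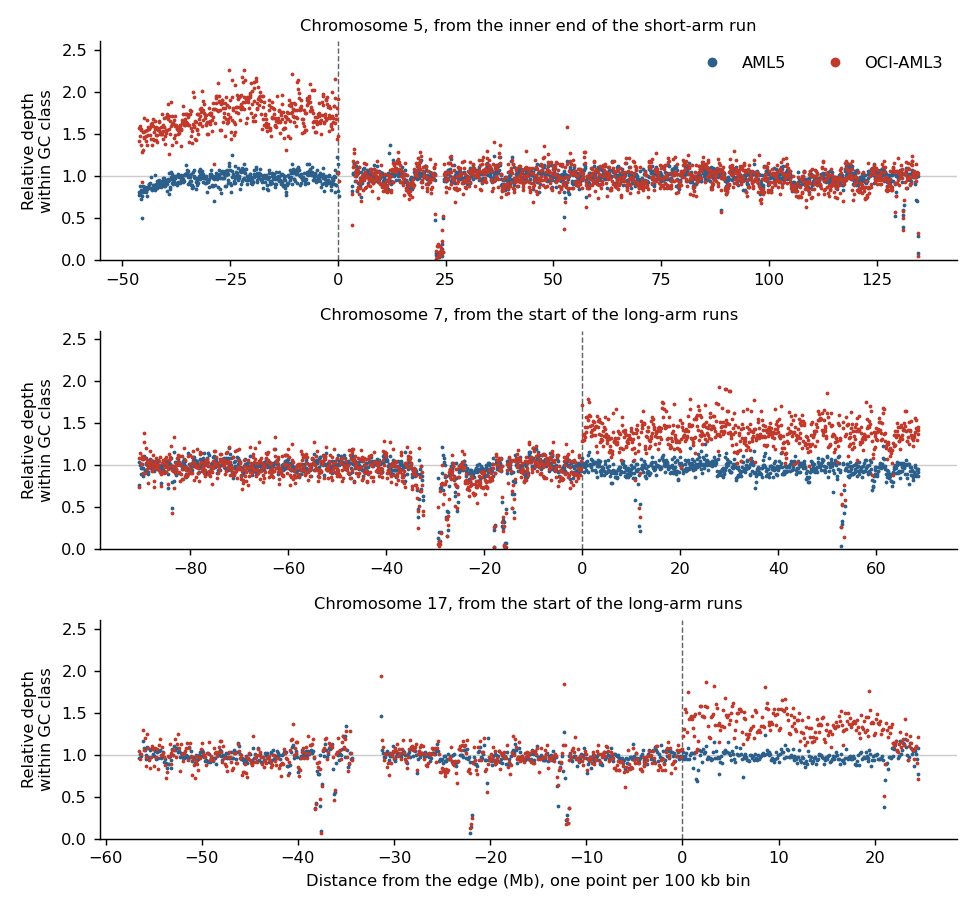
Depth relative to the median of the same GC class (y axis) in each 100 kb bin of chromosomes 5, 7 and 17, against the distance in Mb from the edge of the high-ratio runs (x axis, dashed line at 0). OCI-AML3 (red) lies mostly above 1 on 5p, 7q and 17q, with medians of 1.69, 1.38 and 1.34 over all scored bins, while AML5 (blue) stays mostly near 1.

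CpG-dense CpGs, those with more than 20 others within 500 bp, took no part in choosing the bins, although they come from the same libraries. Their ratio was scaled by its own median over bins. Over all bins with at least 20 such CpGs, 8.15% had a dense-CpG ratio above 1.3. The share was 46.0% in the high-ratio bins (1007 bins), with 88.7% on 5p, 71.0% on 7q, 62.0% on 17q and 15.4% elsewhere. In the high-ratio bins, the median dense-CpG ratio was 1.63 on 5p, 1.46 on 7q, 1.4 on 17q and 1.2 elsewhere, against 0.97 in all other bins. Over all scored bins of the 3 regions, high-ratio or not, the shares were 88.3%, 64.2% and 56.4% and the medians 1.63, 1.41 and 1.37. The 3 regions were thus higher at dense CpGs too, and the high-ratio bins elsewhere stood closer to the rest of the genome there.

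**Figure D3:**
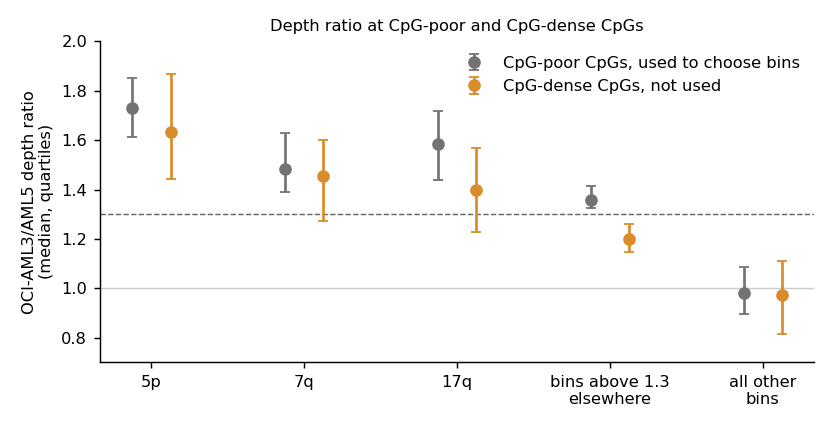
Depth ratio of OCI-AML3 to AML5 (y axis; point, median; bars, quartiles over bins) at the CpG-poor CpGs that chose the bins (grey) and at CpG-dense CpGs (orange), with the threshold dashed. In the high-ratio bins, dense CpGs had medians of 1.63, 1.46 and 1.4 on 5p, 7q and 17q and 1.2 elsewhere.

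The high-ratio bins outside the 3 regions were sorted into 3 kinds, set after the data were seen. Most of them, 956 of the 1075 bins, had neither of the marks of the 2 kinds described next, and 844 of these lay in the highest GC class and 923 in the highest 2. Their median GC content was 52.7%, they held 2812 of the 2927 protein-coding genes that start in the 1075 bins, and 365 (38.2%) lay within 5 Mb of a chromosome end. OCI-AML3 had a median relative depth of 1.56 there and AML5 1.17, and within the GC class these were 1.07 and 0.99. Of the 956 bins, 19 remained above 1.3 within their GC class. The longest runs outside the 3 regions, which can hold bins of more than 1 kind, were chr1:500001-3700000 and chr16:100001-3600000 with 24 bins each, chr11:200001-4300000 with 23 and chr16:87300001-90200000 with 22. Their median ratios were 1.39, 1.4, 1.37 and 1.39, and within the GC class they were 1.11, 1.10, 1.11 and 1.10. A run of 16 bins near the end of chromosome 8 differed from these in that both lines were deep, with relative depths within the GC class of 1.5 in OCI-AML3 and 1.42 in AML5.

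In 98 bins outside the 3 regions, each line had no calls at over 20% of the CpGs. These bins had median relative depths of 0.27 for OCI-AML3 and 0.13 for AML5. Over all scored bins, 479 had this many uncovered CpGs, and 108 of them (22.5%) were high-ratio bins. Several of the highest ratios of all came from this kind of bin. The bin chr7:143300001-143400000, on 7q, had a ratio of 6.92 (exact interval, 6.23 to 7.69), since over its 335 CpGs OCI-AML3 had 2464 calls and AML5 had 421. There, 67.9% of CpGs in OCI-AML3 and 85.3% in AML5 had no calls, and the genes TCAF2 and TCAF2C, of a family of ion channel regulators, start in it. The bin chr15:30600001-30700000, where the fusion gene CHRFAM7A starts, had a ratio of 5.97 at 6.05 and 1.2 calls per CpG. The neighbouring bin with the start of GOLGA8R, of a golgin gene family with many copies, had a ratio of 3.80. The bin chr6:171000001-171100000 had a ratio of 4.24 and no protein-coding gene start. For members of gene families with near-identical copies, reads may be split or lost in mapping, so the ratios of these bins are uncertain.

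In the remaining 21 bins outside the 3 regions, which were covered and above 1.3 within their GC class, AML5 was below 0.8 of the median of its class. The median depths within the GC class were 0.93 for OCI-AML3 and 0.66 for AML5. In some of these bins OCI-AML3 was low too. It was at 0.60 against 0.23 in chr6:32600001-32700000, where HLA-DQB1 starts, and at 0.46 against 0.27 in chr22:20300001-20400000. The highest ratio of the whole genome was of this kind. The bin chr9:21900001-22000000, which holds the start of CDKN2A and overlaps MTAP, a gene of the methionine salvage pathway, had a ratio of 7.2 (exact interval, 6.84 to 7.57). OCI-AML3 had 10677 calls over its 472 CpGs, or 22.6 calls per CpG, and AML5 had 1753, or 3.71. Relative to its own median, OCI-AML3 was at 0.91 and AML5 at 0.13. The next bin, chr9:22000001-22100000 with the start of CDKN2B, had a ratio of 1.31, at 21.6 and 19.4 calls per CpG. In the CDKN2A and CDKN2B bins, then, the high ratio came with a low depth of AML5, and OCI-AML3 was slightly below its own median.

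In windows of 10 kb, the low stretch of AML5 ran over chr9:21890001-22040000, that is, 150 kb with CDKN2A, CDKN2B and a part of the annotated MTAP locus. AML5 had a median of 4.16 calls per CpG over these 15 windows, against 27.3 in the windows around them. OCI-AML3 had 23.8 within and 21.7 around. The 3 exons of the canonical CDKN2A transcript and the 2 of CDKN2B all lay within the stretch, whereas the 8 exons of the canonical MTAP transcript lay outside it. At exon 2 of CDKN2A, OCI-AML3 had 82.3 calls per CpG and AML5 had 7.09, and at exon 1 of CDKN2B these were 73.8 and 8.61. AML5 was low at every exon of both genes, but its calls did not reach 0.

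At ETV6 the calls of AML5 did come close to 0. The bin chr12:11900001-12000000, which lies within the gene, had a ratio of 3.13 (exact interval, 3.06 to 3.20), with 27.5 calls per CpG for OCI-AML3 against 10.4 for AML5. In a stretch of 51.2 kb with 560 CpGs, whose last CpG is at position 11942553, no CpG had more than 3 calls in AML5, and 512 had none. In this stretch, AML5 had 61 calls in all and OCI-AML3 had 14221. It holds exon 2 of the 8 exons of the canonical transcript, where OCI-AML3 had 37.7 calls per CpG and AML5 had 0. The CpGs at the 2 ends of the printed sequence had 0 and 8 calls in AML5, and 3 and 20 in OCI-AML3. In the 50 kb to the left of the stretch AML5 had 30.03 calls per CpG and OCI-AML3 had 27.3, and in the 50 kb to the right 17.8 and 28.7. Further right, in chr12:12030001-12040000 and still within ETV6, AML5 was back at 30.9 calls per CpG and OCI-AML3 had 25.1. Across these parts the means of OCI-AML3 lay between 25.1 and 28.7 calls per CpG.

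A partial drop of AML5 was seen at CERS6, which encodes a ceramide synthase. Over chr2:169360001-169550000, AML5 had a median of 13 calls per CpG, against 29.0 around it, that is, 0.45 times the level of its flanks. OCI-AML3 had 23.3 within and 23.8 around. The bin chr2:169400001-169500000 had a ratio of 1.91. In the 3 bins of STAG1, a cohesin subunit gene, from chr3:136100001 to 136400000, the ratios were 1.4, 1.37 and 1.45, and AML5 stood at 0.69, 0.63 and 0.67 of its GC class.

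**Figure D4:**
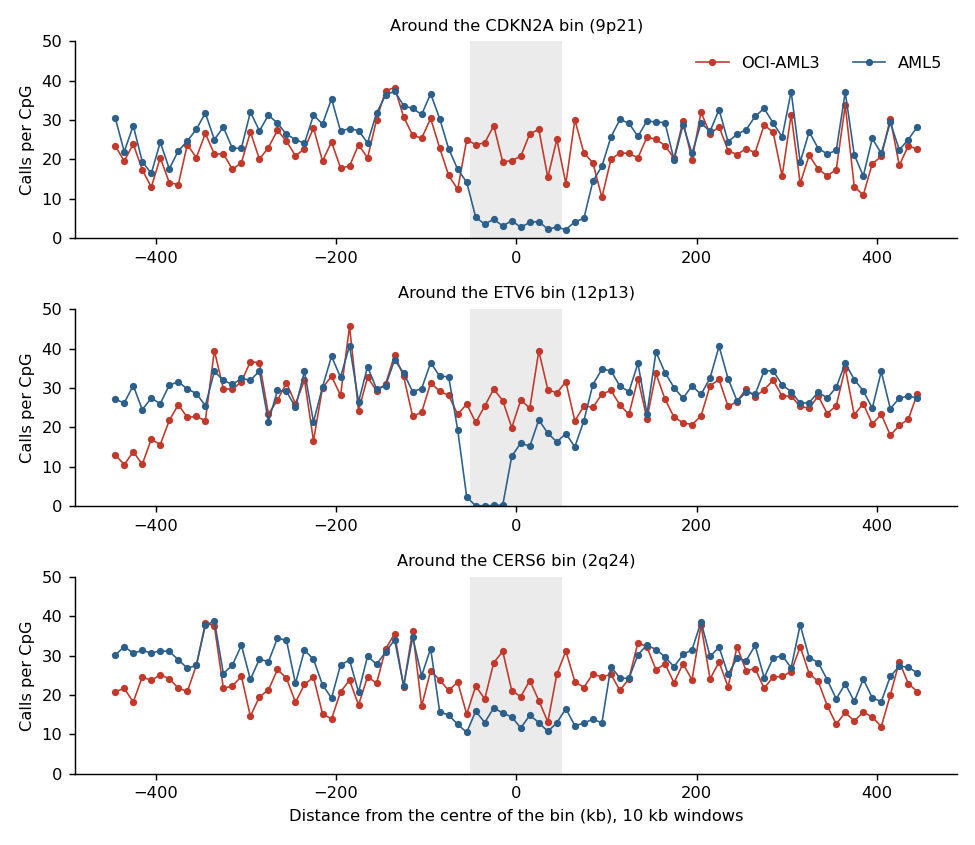
Calls per CpG (y axis) in 10 kb windows of OCI-AML3 (red) and AML5 (blue), against the distance in kb from the centre of the 100 kb bin (x axis; shaded, the bin). Medians of AML5 within its low stretch were 4.16 at CDKN2A and 13 at CERS6, and at ETV6 it fell close to 0 over 51.2 kb, while OCI-AML3 kept its level.

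Stretches without calls were counted in both directions. Over the autosomes, 122 stretches of 30 or more CpGs had at most 1 call per CpG in AML5 and a mean of at least 10 in OCI-AML3, and 117 had the reverse. Of the 122, 73 touched a high-ratio bin, as did 10 of the 117. The longest was chr5:180375717-180427545, with 581 CpGs over BTNL8 and BTNL3, a pair of related butyrophilin-like genes, where OCI-AML3 had a mean of 17.9 calls. OCI-AML3 was itself lower there, with a median of 15.5 calls per CpG in the 10 kb windows of the stretch against 31.8 around them. At ETV6 the stretch by this definition had 413 CpGs. Another, on 7q at chr7:141770624-141794384, had 207 CpGs and a mean of 37.4. The count of such stretches was therefore similar in the lines, and those of AML5 lay more often in high-ratio bins, which the choice of bins by a high ratio favours.

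Protein-coding genes started in high-ratio bins more often than the share of bins alone gives. Over all scored bins, 20% of such genes (3842 of 19213) started in a high-ratio bin, against 8.53% of bins, and 2927 of the 3842 lay outside the 3 regions. The 3 regions differed in gene content, since 5p held 154 gene starts in 461 bins, 7q held 470 in 549 and 17q held 291 in 219. With the ratio divided within GC classes, 949 of the 19213 genes started in bins above 1.3, against 1386 of 26995 bins (5.13%). On that scale, genes thus did not exceed the share of bins. The shares in the following gene lists are read against the 20%. They were 15.4% for myeloid leukemia genes, 20.7% for genes often gained, 12.5% for genes often lost, 18.2% for genes of DNA methylation and 33.3% for the 12 genes of the study's signature.

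Of 39 scored genes mutated or rearranged in myeloid leukemia, 6 started in high-ratio bins, and 2 of them lay in the 3 regions. EZH2, the histone H3 lysine 27 methyltransferase on 7q, had a ratio of 1.59 in its bin and 1.57 within the GC class. SRSF2, a splicing factor on 17q, had 1.77 and 1.55. For DNMT3A the ratios were 1.4 and 1.11, for CEBPA, a transcription factor of granulocyte development, 1.39 and 1.10, for NUP98, a nuclear pore gene, 1.36 and 1.19, and for the splicing factor U2AF1 1.3 and 1.03. DNMT3A itself thus lay in a high-ratio bin of GC content 53.3%, with 40.5 calls per CpG for OCI-AML3 against 34.2 for AML5. Within its GC class this bin was not above 1.3. Of 11 scored genes of DNA methylation, DNMT3A and TET3 were in high-ratio bins, and TET3 had 1.35 and 1.18.

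Among 29 genes often gained in cancers, 6 started in high-ratio bins. TERT, the catalytic subunit of telomerase on 5p, had a ratio of 2.55 in its bin, with 62.3 calls per CpG for OCI-AML3 against 28.9 for AML5, and 2.01 within the GC class. CDK6, a G1 kinase, and MET, a receptor tyrosine kinase, are both on 7q, with 1.44 and 1.42 and, within the GC class, 1.5 and 1.45. MYCL, AKT1 and ERBB2 had ratios of 1.32, 1.41 and 1.4, and none of them was above 1.3 within the GC class. Of 24 genes often lost, CDKN2A, CDKN2B and BAP1 were in high-ratio bins, and BAP1 had 1.39 and 1.10. Of the 12 genes of the study's signature, which was chosen with these lines, HOXA11, TRIP6, CAVIN3 and HOXB2 were in high-ratio bins. TRIP6, on 7q, had 1.88 and 1.49, and CAVIN3 had 1.37 and 1.26.

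Several genes lay just outside the threshold. The last bin left out, that of CCND3, had a ratio of 1.29999 from 35777 and 32521 calls, and the first bin taken in had 1.30001 from 27488 and 24986. DNMT3L was also left out, by less than 0.01. NPM1 had 1.28, and GATA2 and CBFB had 1.27. The threshold thus cut through a continuous range of values.

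Methylation was a separate readout of the same reads. The level of a bin was the mean over CpG-poor CpGs with more than 5 calls in both lines. In 2284 high-ratio bins with a level, OCI-AML3 had a median level of 77.6% against 84.8% for AML5, and bins differed by a median of -6.97 percentage points (OCI-AML3 minus AML5). In all other bins the median difference was -7.82. Over all bins, 41.1% were lower in OCI-AML3 by over 10 percentage points, and 33.3% of the high-ratio bins were. After subtracting the median of the other bins of the same chromosome, the median difference of the high-ratio bins was 1.49 percentage points. The lower methylation of OCI-AML3 was thus present in the high-ratio bins as in the rest, by slightly less.

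Among the 3 regions, 5p had the highest share of bins with more methylation in OCI-AML3. Over all bins, 12% were higher in OCI-AML3 and 5.86% were higher by over 10 percentage points. On 5p, 148 of 461 bins (32.1%) were higher and 95 (20.6%) were higher by over 10 points, against 3.29% on the long arm of chromosome 5, 4.93% on 7q and 0.46% on 17q. At the same time, 169 bins of 5p (36.7%) were lower by over 10 points, against 41.1% over all bins and 42.2% on 7q. In AML5 the median level of 5p was 59.7%, against 86.6% on the long arm, 85.7% on 7q and 88.1% on 17q. In OCI-AML3 the medians were 68.9%, 76.9%, 75.1% and 82.1%.

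The balance of the 2 directions changed along 5p. In the first 5 Mb, the median level of OCI-AML3 was 41.3% and that of AML5 60.04%, a median difference of -19.0 percentage points, and no bin was higher by over 10. From 5 to 10 Mb it was -18.5 and from 10 to 15 Mb -15.0, again with no bin higher by over 10. In these 3 segments, 42, 46 and 31 of 50 bins were lower by over 10. From 15 to 20 Mb the median difference was 6.84, from 20 to 25 Mb 5.78 and from 25 to 30 Mb 10.4, with 24, 23 and 26 of 50 bins higher by over 10 and 2, 12 and 10 lower. From 30 to 35 Mb, 12 of 50 bins were higher and 7 lower by over 10. From 35 to 40 Mb both lines were high, at 83.9% and 88.4%. From 40 to 45 Mb the median difference was -4.24, with 7 bins higher and 11 lower by over 10, and in the last 11 bins it was -14.7, with 1 higher and 8 lower. The depth ratio did not follow this change, since its medians were 1.77, 1.62 and 1.68 from 15 to 30 Mb and 2.05, 1.69 and 1.7 in the 3 segments before.

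**Figure D5:**
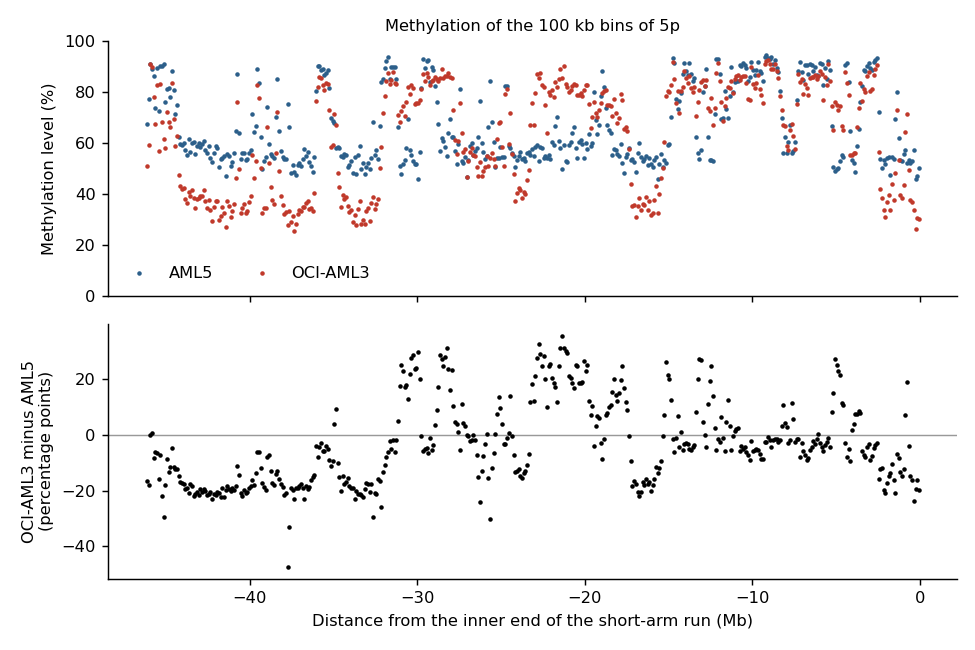
Methylation level in percent (top) and the difference of OCI-AML3 minus AML5 in percentage points (bottom) in the 100 kb bins of 5p, against the distance in Mb from the inner end of the run. AML5 (blue) had medians of 55.4 to 60.04% in the 5 Mb segments up to 30 Mb from the tip, while OCI-AML3 (red) changes between low and high stretches, so the difference takes both signs.

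Bins of low methylation in AML5 had more room to be higher in OCI-AML3, so bins of like level were compared. On 5p, 281 bins had a level of 50 to 70% in AML5, and 88 of them (31.3%) were higher in OCI-AML3 by over 10 points. In bins of that level outside the high-ratio set, 17.1% were (1284 of 7510). The share was 14.1% on the long arm of chromosome 5, 14.9% on 7q and 0% of 22 bins on 17q. Above 70% in AML5, the share was 1.26% on 5p and 0.65% outside the high-ratio set. The count on 5p was therefore higher than elsewhere also at like levels, without a replicate to set its error, and neighbouring bins are not independent.

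On 7q and 17q OCI-AML3 was lower in the median bin. The median difference was -8.37 percentage points on 7q and -8.67 on chromosome 7 before 90 Mb, and over all scored bins of 7q, high-ratio or not, it was -9.85. On 17q it was -5.96, against -7.84 on chromosome 17 before 56 Mb. Of the high-ratio bins of 17q, 23.7% were lower by over 10 points, against 38.9% of all bins before 56 Mb. Over all scored bins of 17q, these values were -6.25 and 27.4%. After subtracting the median of the other bins of the same chromosome, the median difference was 2.13 percentage points on 7q, 2.24 on 17q and 2.39 on 5p. This is a signed shift, so bins higher in OCI-AML3 raise it too. The other bins include those of the same regions that did not pass the threshold. In the high-ratio bins elsewhere the median was -7.06, and 29.2% were lower by over 10.

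At promoters, windows reaching 2000 bp to each side of the gene start, high-ratio bins did not differ much from the genome as a whole. Of 3799 promoters with at least 10 covered CpGs, 301 (7.92%) were lower in OCI-AML3 by over 20 percentage points, against 8.58% of all promoters. Another 41 (1.08%) were higher, against 1.68%. On 5p, 12 of 154 were lower and 13 (8.44%) were higher. On 7q, 46 of 467 were lower and 8 higher, and on 17q 14 of 290 were lower and 1 higher. The share of higher promoters on 5p was thus above the 1.68% of the genome. The higher promoters and the higher bins of 5p did not always coincide. NKD2 and IRX4, named below, start in the first 5 Mb, where 0 bins were higher by over 10 points and 42 of 50 were lower.

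The promoter with the largest decrease was that of CDKN2B. OCI-AML3 had a level of 4.84% and AML5 a level of 95.6% over 51 CpGs, at 68.8 and 10.0 calls per CpG. In the printed stretch at the gene start, 4 of 2067 calls (0.19%; Wilson interval, 0.08 to 0.50) were methylated in OCI-AML3 and 328 of 341 (96.2%; 93.6 to 97.8) in AML5. At the CDKN2A start, 0 of 1830 calls were methylated in OCI-AML3 and 0 of 232 in AML5, which allows shares of up to 0.16% and 1.29% (3 counts of each total). The few calls of AML5 in its low stretch were thus methylated at the CDKN2B start and unmethylated at the most upstream CDKN2A start. Exon 1 of the canonical CDKN2A transcript lies outside the printed sequence, at chr9:21974677-21974856, and its methylation was not examined.

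The other large decreases were at CAVIN3 (9.24% in OCI-AML3 and 88.3% in AML5), LAT (15.0% and 89.2%), an adaptor of T cell receptor signalling, and RUNX3 (14.0% and 81.7%), a transcription factor of blood cells. SECTM1 had 15.3% and 79.2%, and LTC4S, which makes leukotriene C4, 7.46% and 69.7%. HOXA10, a homeobox gene of blood progenitors, had 2.13% and 63.7%, and ENSG00000257184, whose window overlaps that of HOXA10, 1.88% and 64.4%. PRRT2 had 17.8% and 78.5%, and PRSS1, a trypsinogen gene of 7q with near-identical copies, 24.9% and 84.7%. Of these 10 promoters, SECTM1 is on 17q and PRSS1 on 7q, and none is on 5p.

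Among the 10 largest increases, 6 were on 5p and 7q, which held 154 and 467 of the 3799 promoters with at least 10 covered CpGs. SGCE and PEG10 on 7q, counted apart although their windows overlap, share an imprinted promoter, in which the maternal copy is normally methylated. PEG10 had 58.3% in OCI-AML3 and 13.3% in AML5, and SGCE had 58.2% and 12.7%. In the printed stretch near the start of PEG10, 636 of 1332 calls (47.7%; Wilson interval, 45.1 to 50.4) were methylated in OCI-AML3 and 58 of 682 (8.50%; 6.64 to 10.8) in AML5. WNT2, a Wnt ligand, had 63.5% and 30.2%, and AASS, an enzyme of lysine breakdown, 48.5% and 15.8%. On 5p, NKD2, an inhibitor of Wnt signalling, had 52.4% and 20.2%, and IRX4, a homeobox gene, 73.6% and 41.4%. The other 4 increases were at FAAH (82.0% and 33.3%), NAPRT (91.4% and 44%), NKX6-2 (91.5% and 59.0%) and MMP9 (72.7% and 40.9%).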

How the data were processed

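DNA methylation was measured by whole-genome bisulfite sequencing in 1 library each of OCI-AML3 and AML5. Per the submitters' processing notes, reads were mapped with Bismark and Bowtie 0.12.8 to hg19. The deposited values are counts that the authors made of the reads called methylated and those called unmethylated at each CpG, and they are not normalized. How duplicate reads were treated is not given in the sources used here. All autosomal positions were checked to be the G of a CpG in GRCh37. Bins were chosen, and the lists and regions named, with earlier results of these data known. Computations used Python 3.11.15, NumPy 2.4.6, pandas 2.3.3 and SciPy 1.17.1, with gene models of GENCODE for GRCh37, and the scripts were tested on simulated data.

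The long runs, genes of the lists starting in high-ratio bins, the 10 largest promoter decreases and increases and the gene starts of the 5 highest bins were named. Intervals for shares are Wilson intervals and those for bin ratios exact binomial. The cap on calls left out a median of 5.49% of CpGs in the bins of 5p, against 0% over all bins. GC content was the G and C share of each bin. No test between lines was run, since each has 1 library.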

Additional observations from a re-analysis of the deposited data

How the results depend on the processing

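No paired analysis was possible because each line has 1 sample. Of the 72 recomputed values, 30 stayed within 1.5 times the count or within the 95% interval of the value over bins. The other 42 moved further. No value changed sign, but only the methylation differences could, since counts, shares, depths and depth ratios cannot be negative. The count of high-ratio bins was 4192 at a threshold of 1.2 and 1345 at 1.4. The count was 821 with the ratio divided by that of the total calls and 358 in bins of 500 kb. With the ratio divided within the GC classes, added after the data were seen, it was 1386, with 949 genes, 73 promoters lower and 22 higher, 90.5% of bins in long runs, a dense-CpG ratio of 1.5, relative depths of 1.41 and 0.92, and 38.6% of bins lower in OCI-AML3 by over 10 points. At thresholds of 1.2 and 1.4, there were 7235 and 1717 genes, 525 and 109 promoters lower and 76 and 24 higher, dense-CpG ratios of 1.2 and 1.47, and relative depths of 1.45 and 1.59 in OCI-AML3 and of 1.11 and 1.00 in AML5. The share of bins in long runs was 72.0% at 1.4, 46.0% with no joining, 58.7% with all CpGs and 69.8% in 500 kb bins. With all CpGs, 6031 genes started in high-ratio bins and the relative depth of AML5 was 1.09. Within 10 classes of CpG number, there were 2548 genes and relative depths of 1.51 and 1.00. With only CpGs over 5 calls in both lines, the dense-CpG ratio was 1.3. The median methylation difference was -7.60 in 500 kb bins and -6.41 with all CpGs for the level, and the share lower by over 10 points was 31.4% at 1.2 and 27.2% with all CpGs for the level. Against the same chromosome it was 1.87 at 1.4, 1.19 in 500 kb bins and 1.19 with all CpGs for the level. With CpGs over 100 calls left out in each line on its own, also added later, there were 2110 bins. The causes of these shifts were not tested. Depth limits the ratios of bins with many uncovered CpGs.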
